A study of Caenorhabditis elegans with 6 samples.

Results

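Cuticle collagens of Caenorhabditis elegans named after roller, blister and squat mutants were described in RNA sequencing libraries made from anchor cells and from whole bodies. The 9 genes, rol-1, rol-6, rol-8, bli-1, bli-2, bli-6, sqt-1, sqt-2 and sqt-3, were chosen by symbol from the 46748 gene rows of the count files, and all 9 were found. The set was put together with the anchor cell and whole-body counts already known. Their levels and differences between the groups are therefore given as a description, without p-values. How many passed the threshold of the fit over all genes is given only beside the share of all genes that did, and nothing is supported with it.

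Each group held 3 libraries of wild-type larvae of the middle L3 stage, with the vulval precursor P6.p at 2 cells, grown at 20 °C. Both groups went through the same dissociation: SDS and DTT to loosen the cuticle, Pronase E at 15 mg/mL, and a 5 μm filter. The anchor cell is the uterine cell that invades from the gonad toward the vulval epidermis, and its libraries carry the tissue label uterine. For the step that isolated the anchor cells, the method was not given in the sources used here. Nothing in the labels says that replicates came from separate cultures, so the spread between libraries may be technical.

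Cuticle collagens are small, glycine-rich secreted proteins that assemble in triple helices, are trimmed by proteases outside the cell and are crosslinked into the exoskeleton. They are made mainly by the epidermis in waves around each molt. Mutations that alter the helical layering of the cuticle make a worm roll about its long axis (roller) or make it short and thick (squat), and loss of the struts that join cuticle layers lets fluid raise blisters.

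The libraries held 23279623 to 37501816 gene counts. Nuclear rRNA took 18.4% to 54.3% of these. Mitochondrially encoded genes took 4.68% to 7.17% of the whole-body counts; the anchor cell libraries had 48.1% (replicate 1), 22.9% (replicate 2) and 23.9% (replicate 3). Levels are CPM, counts scaled to a common library size by TMM, a factor that corrects for differing library composition, and 3 counts corresponded to 0.0483 to 0.153 CPM. Of 10 anchor cell markers, chosen with earlier results of these data known, 7 were called higher by edgeR, against 2.01% of tested genes. They were nhr-67, egl-43, hlh-2, lag-2, lin-29, cdh-3 and fos-1. Leaving out anchor cell replicate 2 kept 4 of these calls, as did leaving out whole-body replicate 3. Not called were lin-3 (log2 difference 1.73), zmp-1 (0.61, with 9 to 65 counts in a library) and him-4 (-0.72). In RNA from pooled cells, fewer cells of a type and less RNA per cell cannot be told apart.

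In the annotation of WBcel235, 7 of the 9 genes lie on chromosome II, 77.8% of them, against 15.4% of 156 col class collagen genes and 17.3% of all protein-coding genes. The others are bli-6 on chromosome IV and sqt-3 on chromosome V. The genes are compact: 8 of the 9 have a longest transcript of 994 to 1467 bases, while that of bli-1 has 3010. Each has 2 to 5 exon blocks. On the opposite strand, bli-1 shares 7 exon bases with dph-2, sqt-3 shares 144 with the noncoding F23H12.13, and bli-2 shares its span but no exon base with zyg-1. The sources used here do not give the strand setting of the counting, so reads in those stretches cannot be assigned with certainty. F23H12.13 itself had at most 16 counts in a library.

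All 9 collagens had a higher mean in anchor cells than in whole-body cells, with a median log2 difference of 2.94, against -0.12 over all 11955 tested genes. They did not move as 1 block. The genes rol-1, bli-6 and bli-1 stood 21.9-fold to 163-fold higher by the ratio of mean CPM. The genes rol-6, rol-8, sqt-1, sqt-2 and sqt-3 were 5.11-fold to 8.21-fold higher by the mean, with anchor cell replicate 1 below the highest whole-body library for 4 of them. The last, bli-2, was near the floor in most libraries.

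**Figure D1:**
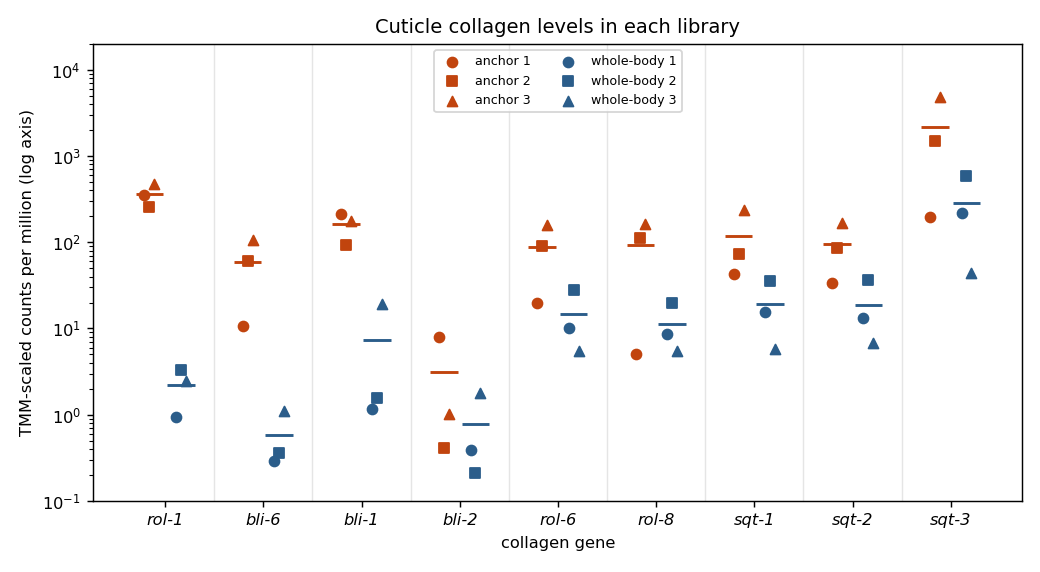
TMM-scaled CPM (log axis) of the 9 collagen genes in each of 3 anchor cell libraries (orange) and 3 whole-body libraries (blue); marker shape gives the replicate and bars the group mean. For rol-1, bli-6, bli-1 and sqt-1 every anchor cell point lies above every whole-body point, and for the other 5 genes the groups overlap.

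The largest difference was that of rol-1 (WBGene00004394, chromosome II, 12172573 to 12176069, plus strand), a collagen whose mutants roll. The anchor cell libraries, given here and later in the order of replicates 1 to 3, had 8869, 4978 and 9936 counts, and the whole-body libraries had 39, 202 and 70. In CPM these were 353, 255 and 479 against 0.945, 3.25 and 2.47. All 3 anchor cell libraries were high and alike, and the lowest of them stood 78.3-fold above the highest whole-body library. The means were 362 ± 112 and 2.22 ± 1.17 CPM (SD, n = 3 each), a log2 difference of 7.34 ± 0.65 (SE). Its mean exceeded that of 97.9% of tested genes in anchor cells and of 34.9% in whole-body cells.

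Among the blister genes, bli-6 (WBGene00000256, chromosome IV, 6377065 to 6378168, plus strand) came closest to this. It had 266, 1181 and 2203 counts in anchor cells and 12, 22 and 31 in whole-body cells. That is 10.6, 60.4 and 106 CPM against 0.291, 0.354 and 1.096 CPM. The groups did not overlap, though anchor cell replicate 1 was the low one, 10.02-fold under replicate 3. The log2 difference was 6.69 ± 1.04 (SE), and the whole-body level lay above only 9.91% of tested genes.

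A component of the struts of the adult cuticle is encoded by bli-1 (WBGene00000251, chromosome II, 10708960 to 10712156, plus strand). It had 5298, 1819 and 3710 counts in anchor cells, or 211, 93.1 and 179 CPM. The whole-body libraries had 48, 96 and 546 counts, or 1.16, 1.54 and 19.3 CPM. Anchor cells were high in every library, and whole-body replicate 3 was 16.6-fold above whole-body replicate 1. The log2 difference was 4.46 ± 1.06 (SE), and 6.88 without whole-body replicate 3. The overlapping dph-2 had 1 to 508 counts in a library and did not follow bli-1.

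Another strut collagen gene, bli-2 (WBGene00000252, chromosome II, 5651394 to 5652434, minus strand), was scarce. Anchor cells held 202, 8 and 21 counts and whole-body cells 16, 13 and 50, or 8.04, 0.409 and 1.011 CPM against 0.388, 0.209 and 1.77 CPM. Anchor cell replicate 1 was the high library, the groups overlapped, and whole-body replicate 3 was the highest of its group, as it was for bli-1 and bli-6. The log2 difference of 2.01 ± 1.53 (SE) turned to -0.13 without anchor cell replicate 1. The ratio of bli-1 to bli-2, in counts per kilobase within a library and thus free of scaling, was 8.66, 75.1 and 58.3 in anchor cells and 0.991, 2.44 and 3.61 in whole-body cells.

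The squat genes were led by sqt-3 (WBGene00005018, chromosome V, 12352745 to 12354320, plus strand), which encodes a collagen needed for larval viability and body shape. It had 4918, 29079 and 101164 counts in anchor cells and 9052, 36787 and 1259 in whole-body cells. In CPM these were 196, 1488 and 4872 against 219, 592 and 44.5. The range was 24.9-fold among anchor cell libraries and 13.3-fold among whole-body libraries, wider than the 7.66-fold ratio of the means. Anchor cell replicate 1 lay under whole-body replicates 1 and 2, so the groups overlapped. The log2 difference was 2.94 ± 1.10 (SE), and it ran from 1.56 without anchor cell replicate 3 to 4.03 without whole-body replicate 2.

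The collagen gene sqt-1 (WBGene00005016, chromosome II, 11336693 to 11337837, minus strand), known for its genetic interaction with rol-6, had 42.8, 73.8 and 237 CPM in anchor cells. Its whole-body values were 15.6, 35.8 and 5.73 CPM. The groups did not overlap, but by a narrow margin, since the lowest anchor cell library was 1.19-fold above the highest whole-body library. The log2 difference was 2.63 ± 0.81 (SE). Its fellow sqt-2 (WBGene00005017, chromosome II, 23325 to 24458, plus strand) had 34.0, 84.97 and 168 CPM against 13.2, 36.05 and 6.82 CPM. Here anchor cell replicate 1 fell just under whole-body replicate 2, and the log2 difference was 2.35 ± 0.75 (SE).

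The roller gene rol-6 (WBGene00004397, chromosome II, 8733050 to 8734239, plus strand), whose dominant allele is a common marker for transgenic worms, had 19.6, 90.04 and 158 CPM in anchor cells and 10.2, 28.2 and 5.41 CPM in whole-body cells. Replicate 1 of the anchor cells again lay under whole-body replicate 2. The log2 difference was 2.61 ± 0.83 (SE). For rol-8 (WBGene00004398, chromosome II, 7544108 to 7545335, plus strand), another collagen of the roller class, the values were 5.06, 112 and 162 CPM against 8.72, 19.7 and 5.48 CPM. Anchor cell replicate 1 was below all 3 whole-body libraries, while replicates 2 and 3 were above them. Its log2 difference was 3.03 ± 1.01 (SE).

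**Figure D2:**
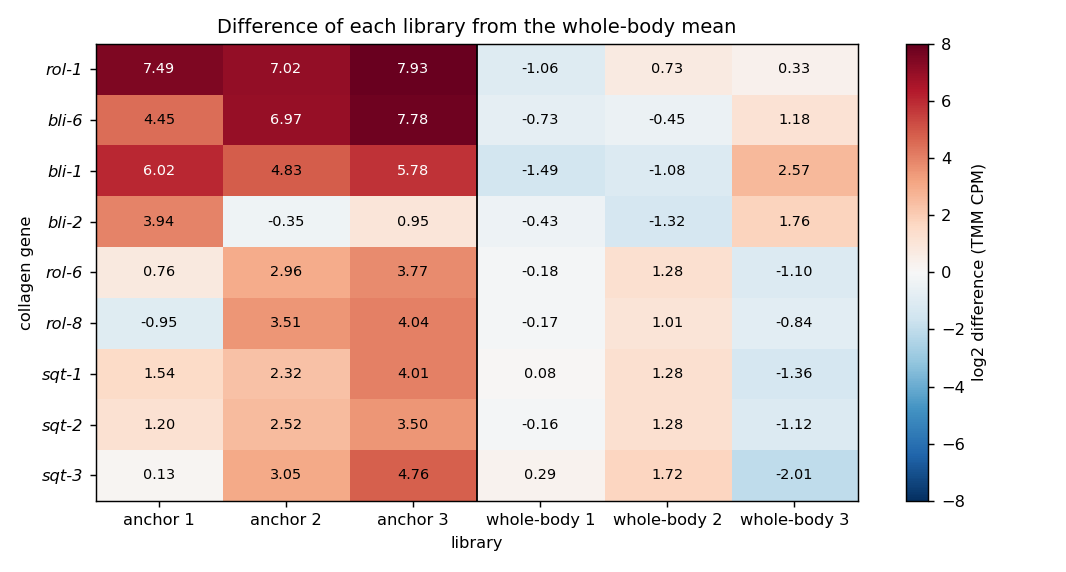
Log2 difference of TMM-scaled CPM of each library (columns) from the mean of the 3 whole-body libraries on the log2 scale, for each collagen gene (rows); red is higher and blue lower. The top 3 rows, rol-1, bli-6 and bli-1, are at 4.45 or more in every anchor cell library, whereas the bottom 5 rows run from -0.95 to 1.54 in anchor cell replicate 1 and from 2.32 to 4.76 in replicates 2 and 3.

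Read by library, the median of the 9 genes above the whole-body mean was, on the log2 scale, 1.54 in the first anchor cell library, 3.05 in the second and 4.04 in the third. Groups that did not overlap, with anchor cells higher, were seen for 4 of the 9 (rol-1, bli-1, bli-6 and sqt-1), and for 12.4% of tested genes. The reverse was seen for none of the 9 and for 23.2% of tested genes. Without anchor cell replicate 1 the number was 8 of 9, against 20.0% of tested genes. With edgeR's quasi-likelihood test and a Benjamini-Hochberg adjusted p threshold of 0.05, 2 of the 9, rol-1 and bli-6, were past the threshold as higher, where 2.01% of tested genes were, and none as lower, where 1.05% were. The members were chosen on this contrast, so nothing is read from these counts.

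For all members but rol-1, the whole-body libraries differed among themselves in 2 opposite ways. For rol-6, rol-8, sqt-1, sqt-2 and sqt-3, whole-body replicate 2 was the highest and replicate 3 the lowest. For bli-1, bli-2 and bli-6, whole-body replicate 3 was the highest, with bli-2 and bli-6 at only 12 to 50 counts in whole-body libraries. The gene rol-1 went neither way, highest in whole-body replicate 2 and lowest in replicate 1. The range within the whole-body group was 3.60-fold to 13.3-fold for the first 5 genes. Summed CPM of 28 epidermal and molting genes was 5544, 9016 and 3157 in the whole-body libraries, also highest in replicate 2 and lowest in replicate 3. The anchor cell libraries had sums of 10950, 4811 and 6186 CPM, highest in replicate 1, the library with the lowest values of the 5 collagens. In that library mlt-11, mup-4 and vab-10 had 2528, 2488 and 1419 CPM of the sum. Not every gene of the list followed the sum. In anchor cells lin-26 had 212, 141 and 260 CPM, pah-1 had 101, 56.2 and 110, and bed-3 had 184, 109 and 253. Those were highest in replicate 3. Replicate 1 also had the lowest sum of the 10 anchor cell markers, 1434 against 3244 and 2675 CPM. It had 16990 genes with counts, against 11508 and 11073 in anchor cell replicates 2 and 3. The part of epidermal RNA in these levels was not tested.

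Profiles over the 6 libraries were compared by the root mean square difference of gene-centred log2(CPM + 1) values, where 0 is an identical profile. The closest pairs among the 9 were rol-6 with sqt-2 (0.263), sqt-1 with sqt-2 (0.266) and rol-6 with sqt-1 (0.43). All 10 pairs among rol-6, rol-8, sqt-1, sqt-2 and sqt-3 were at 1.06 or less. The pairs among rol-1, bli-1 and bli-6 were at 1.37 to 1.43. The profile of bli-6 was nearly as close to rol-6 (1.45), sqt-1 (1.52), sqt-2 (1.53) and rol-8 (1.58). From sqt-3 it was at 1.72. By contrast, rol-1 and bli-1 were at 2.24 or more from rol-6, rol-8, sqt-1, sqt-2 and sqt-3. The scarce bli-2 was at least 1.88 from every other member. These distances share the libraries and the group contrast and are a description.

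Each collagen was compared on the same measure with 4474 other tested genes of at least 10 CPM on average. Some of the nearest genes, such as dpy-4 and ptr-18, were shared between collagens. For bli-6 the 3 nearest were all col class collagens, col-71 (0.292), col-113 (0.338) and col-175 (0.372). The annular collagen gene dpy-4 was the nearest to rol-6 (0.325), the second to sqt-3 (0.546) and the third to rol-8 (0.453). For sqt-2 they were the patched-related ptr-18 (0.171), skpo-2 (0.227) and lon-8 (0.235), and for sqt-1 M03F8.1 (0.198), F53B1.6 (0.294) and pqn-32 (0.297). The gene rol-6 also had ptr-18 (0.387) and ZK180.6 (0.395), and rol-8 had F41F3.3 (0.277) and moe-3 (0.281). Nearest to sqt-3 was Y71G12B.25 (0.503), followed after dpy-4 by ptc-3 (0.684).

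The neighbours of rol-1 were farther off, snr-6 (0.686), E01G4.6 (0.692) and col-38 (0.693), as were those of bli-1, Y51H4A.7 (0.728) and the mitochondrially encoded ndfl-4 (0.981) and atp-6 (1.03). For the scarce bli-2 they were F42H10.5 (0.358), unc-64 (0.367) and Y71G12B.23 (0.433), none of them a collagen. Among the 20 nearest genes, other cuticle collagens numbered 5 for rol-8 and bli-6, 3 for rol-1, bli-1 and sqt-3, 1 for rol-6, sqt-1 and sqt-2, and 0 for bli-2. They were 1.18% of the candidates.

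Levels were compared between genes as CPM per kilobase of the longest transcript. In both groups sqt-3 had the highest mean, 1537 ± 1698 in anchor cells and 201 ± 197 in whole-body cells (CPM per kilobase, SD, n = 3 each). In anchor cells rol-1 came next with 247 ± 76.5, then sqt-1 with 113 ± 100.0, sqt-2 with 92.8 ± 65.5, rol-8 with 84.9 ± 73.2, rol-6 with 82.0 ± 63.7, bli-6 with 59.3 ± 48.0 and bli-1 with 53.5 ± 20.2. Last was bli-2 with 3.17 ± 4.27. The ranges of neighbours in this order overlapped except for bli-1 over bli-2, and sqt-3 was under rol-1 in anchor cell replicate 1, at 138 against 241. The lowest rol-1 value, 174, was above the highest of sqt-2 (163), rol-8 (148), rol-6 (145), bli-6 (107) and bli-1 (70.1), but not above that of sqt-1 (227).

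In whole-body cells the order below sqt-3 was sqt-1 at 18.3 ± 14.7, sqt-2 at 18.2 ± 14.9, rol-6 at 13.4 ± 11.01 and rol-8 at 10.3 ± 6.82 CPM per kilobase. It went on with bli-1 at 2.44 ± 3.44, rol-1 at 1.52 ± 0.80, bli-2 at 0.793 ± 0.858 and bli-6 at 0.582 ± 0.449 CPM per kilobase (SD, n = 3 each). The ranges of all neighbours in this order overlapped. By rank, rol-1 was first or second of the 9 in each anchor cell library and sixth or lower in each whole-body library.

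**Figure D3:**
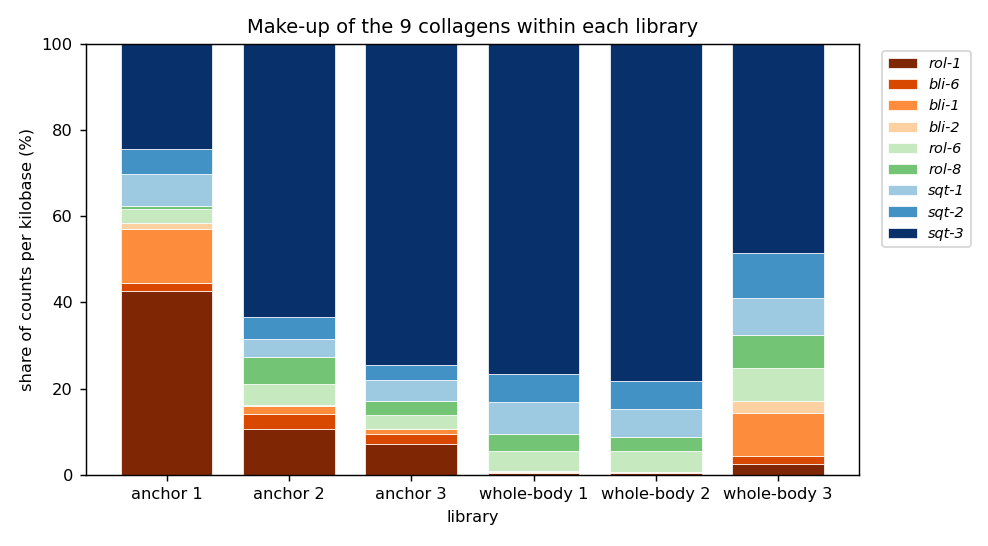
Share of each collagen gene in the summed counts per kilobase of the 9 genes, in percent, for each of the 6 libraries. The dark blue sqt-3 segment takes 63.4% to 78.1% in 4 libraries but 24.4% in anchor cell replicate 1 and 48.6% in whole-body replicate 3, while the dark brown rol-1 segment is at 7.09% or more in every anchor cell library and at 2.62% or less in every whole-body library.

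Shares within a library do not depend on how libraries are scaled. Of the summed counts per kilobase of the 9 genes, rol-1 took 42.7%, 10.5% and 7.09% in the anchor cell libraries but 0.320%, 0.416% and 2.62% in the whole-body ones. The share of sqt-3 was 24.4%, 63.4% and 74.4% in anchor cells and 76.7%, 78.1% and 48.6% in whole-body cells. Anchor cell replicate 1 and whole-body replicate 3 thus had the low sqt-3 shares, and the groups overlapped. The ratio of rol-1 to sqt-3 ran from 0.0952 to 1.75 for anchor cells and from 0.00418 to 0.0539 for the whole body, without overlap. The ratio of bli-1 to sqt-3 overlapped, at 0.0173 to 0.509 against 0.00123 to 0.205. So did that of bli-6 to sqt-3, at 0.0311 to 0.0772 against 0.000854 to 0.0352. Among the 5 genes with the closest profiles, the ratio of sqt-1 to sqt-2 ran from 0.858 to 1.395 for anchor cells and from 0.830 to 1.16 for the whole body. The ratio of rol-6 to sqt-1 ran from 0.438 to 1.17 against 0.628 to 0.904, and that of rol-8 to rol-6 from 0.257 to 1.24 against 0.698 to 1.01. For sqt-1 to sqt-3 it ran from 0.0663 to 0.298 against 0.0825 to 0.176, so the groups overlapped in all of these.

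As a share of the counts on all cuticle collagens (the 9, the dumpy collagens with lon-3, and the col class), the 9 genes made up 36.1%, 25.6% and 39.0% in anchor cells and 17.2%, 18.8% and 6.07% in whole-body cells. Of all gene counts they were 0.0780%, 0.159% and 0.429% against 0.0314%, 0.119% and 0.0113%, so the groups overlapped. Of the counts without nuclear rRNA and mitochondrially encoded genes they were 0.233%, 0.466% and 1.01% against 0.0779%, 0.188% and 0.0274%, without overlap.

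Other genes of cuticle building were then counted, with edgeR's quasi-likelihood test over all 11955 genes. Of these genes 2.01% were called higher and 1.05% lower, the shares to set beside each list below. In the col class 14 of 92 tested collagens were higher and none lower, with a median log2 difference of 1.95. The 92 were those of 159 that passed the filter. Some passed it only through the anchor cell libraries, such as col-181 with 0, 0 and 1 whole-body counts. The 14 were col-14, col-38, col-60, col-63, col-71, col-88, col-113, col-120, col-122, col-129, col-138, col-153, col-175 and col-181, with fitted differences of 3.64 to 10.5, those of genes with almost no whole-body counts being no exact folds. Of these, col-38 reached 243 CPM on average in anchor cells against 1.52 in whole-body cells, a difference of 7.34, the same size as that of rol-1 (edgeR adjusted p = 0.00569). Without whole-body replicate 3 only 3 of the 14 calls were kept (col-38, col-71 and col-175), without whole-body replicate 1 it was 7, and without anchor cell replicate 2 it was 9. Without anchor cell replicate 1, 39 of 99 tested col genes were called higher and 4 lower, against 966 and 1156 of all 13270 tested genes.

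Dumpy collagens include those that form the furrows of the cuticle. Of 11 tested, counting lon-3, none passed edgeR's test. Their log2 difference was above 0 for 4 and below 0 for the others, with a median of -0.30. Before adjustment, p was under 0.05 for 2 that were higher and 3 that were lower, and DESeq2 and limma voom each called 1 higher and 1 lower. Smallest in p upward were dpy-5, at 195 ± 123.3 against 37.2 ± 22.6 CPM (SD, both n = 3), for an edgeR adjusted p = 0.0627, dpy-4, with a difference of 2.63 (edgeR adjusted p = 0.111), and lon-3, with 1.48 (edgeR adjusted p = 0.222). Downward, the furrow collagen genes dpy-8 and dpy-10 differed by -2.27 and -1.89 (edgeR adjusted p = 0.0990 and 0.103). The gene dpy-17, whose product is trimmed by the same protease as that of sqt-3, had 0, 0 and 1 counts in anchor cells against 46, 62 and 116 (edgeR adjusted p = 0.0692). Without anchor cell replicate 1, 3 dumpy collagens were called higher and 1 lower. No test was run of the dumpy collagens against the others.

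None of 17 tested genes for enzymes that fold, trim and crosslink collagens passed edgeR's test, with a median log2 difference of 0.51. Before adjustment, p was under 0.05 for 2, both higher; DESeq2 called 1 higher and limma voom none. The prolyl isomerase gene fkb-3 differed by 2.04 (edgeR adjusted p = 0.0737), the peroxidase gene mlt-7 by 1.27 (edgeR adjusted p = 0.148) and the tetraspanin gene tsp-15 by 1.41 (edgeR adjusted p = 0.281). The astacin protease gene nas-37 differed by -1.74 (edgeR adjusted p = 0.240). Other genes carry the blister name but encode enzymes or an inhibitor, and are given here after their values were seen. The dual oxidase gene bli-3 had 21.8 ± 19.4 against 15.4 ± 5.51 CPM, and the proprotein convertase gene bli-4 had 32.8 ± 25.7 against 48.8 ± 13.4 CPM (SD, n = 3 each), both with overlapping groups. The protease inhibitor gene bli-5 had 99, 23 and 0 counts against 6, 6 and 0 and was not tested.

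Markers of the epidermis, the main source of these collagens, were present in both groups. Of 28 tested epidermal and molting genes, 2 were higher and none lower, with 13 of 28 above 0 and a median log2 difference of -0.18. The 2 were mup-4, a transmembrane protein gene of epidermal attachments, by 2.73, and the cuticlin gene cut-1, by 8.62 (edgeR adjusted p = 0.0396 and 0.0164). Neither remained past the threshold when anchor cell replicate 2 or whole-body replicate 3 was left out, and that of mup-4 was also lost with library totals alone and on leaving out anchor cell replicate 3 or whole-body replicate 1. The cut-1 counts were 212, 2147 and 501 against 10, 6 and 0. Next by p were the zinc finger gene lin-26 (1.61), the phenylalanine hydroxylase gene pah-1 (1.74) and bed-3 (1.93), with edgeR adjusted p = 0.0597, 0.0682 and 0.0714. The GATA factor gene elt-1 differed by -2.25 (edgeR adjusted p = 0.112), sym-1 by -1.50 (edgeR adjusted p = 0.249) and let-653 by -0.88 (edgeR adjusted p = 0.474). None of the 28 was at 0 in all libraries.

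Seam cells, the lateral epidermal cells, were represented by 10 genes, of which 6 were tested. The GATA factor gene egl-18 was higher by 1.98 and the hedgehog-related gene grd-10 lower, at -3.32 (log2; edgeR adjusted p = 0.0427 and 0.0278). Neither call held without anchor cell replicate 3, whole-body replicate 1 or whole-body replicate 3. Next by p were the GATA factor gene elt-6, at 3.17, and bus-8, at -1.62 (edgeR adjusted p = 0.0828 and 0.0973). The other 2 tested genes had overlapping groups, rnt-1 with 669, 15 and 2 counts against 143, 183 and 49, and wrt-2 with 4810, 517 and 627 against 3118, 10531 and 1202. The 4 untested genes, named after their counts were seen, had at most 1 count in an anchor cell library. In whole-body cells ceh-16 had 63, 88 and 7 counts, bro-1 had 10, 32 and 49, lin-22 had 14, 11 and 0, and nhr-73 had 0 in every library. The egl-18 call was kept only without anchor cell replicate 1 when single libraries were left out, and was lost with library totals alone and upper-quartile scaling. Summed CPM of the list ran from 229 to 331 for anchor cells and from 215 to 398 for the whole body. Of 6 vulval precursor genes, cog-1 was higher by 3.13 (edgeR adjusted p = 0.0328). When single libraries were left out, that call was kept only without anchor cell replicate 1. The log2 difference was above 0 for 4 of the 6. Of the others, lin-39 was at -1.08, with every anchor cell library under every whole-body library. The gene lin-31 was at -0.03, with overlapping groups. The list summed to 162 to 247 CPM for anchor cells against 46.5 to 97.1 CPM for the whole body. The part of these cells in the collagen levels was not tested.

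Other tissues gave the following sums over 5 markers each. Body wall muscle genes summed to 2443 to 3228 CPM for anchor cells, against 7413 to 11000 CPM, and germ line genes to 11.4 to 28.1 against 175 to 247 CPM. Intestinal genes summed to 48.9 to 293 against 214 to 327 CPM, and neuronal genes to 531 to 946 against 224 to 403 CPM. Among these 20 genes, unc-15 and gld-1 were called lower, by log2 differences of -2.19 and -3.84 (edgeR adjusted p = 0.0486 and 0.0345), and none higher; before adjustment, p was under 0.05 for 4 muscle and 4 germ line genes that were lower and for 3 neuronal genes that were higher. The unc-15 call was kept only without anchor cell replicate 1 when single libraries were left out, and the gld-1 call was lost only without whole-body replicate 3.

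**Figure D4:**
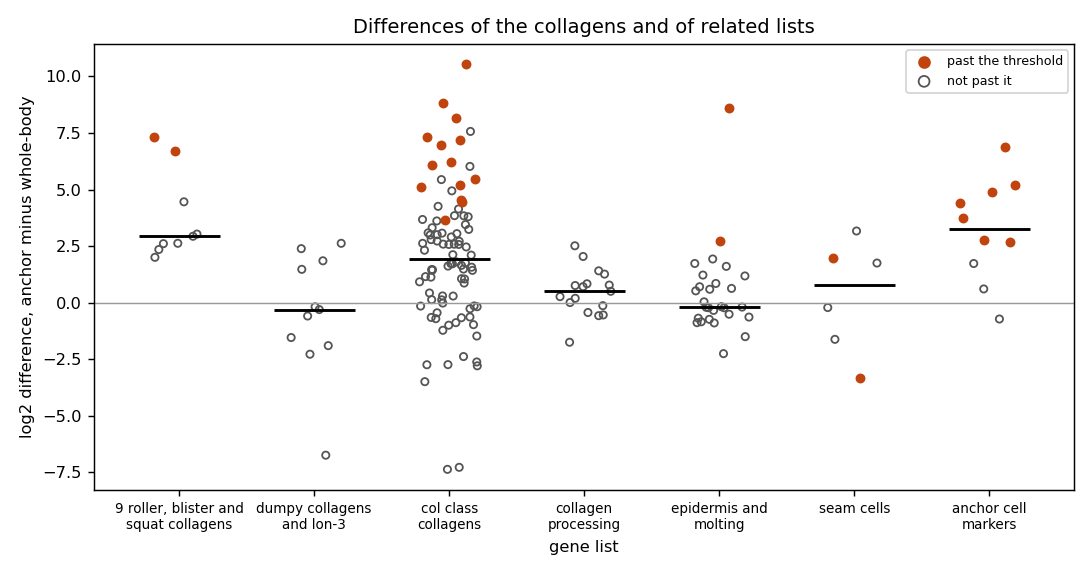
Log2 difference between anchor cells and whole-body cells of each tested gene, by gene list; filled orange points are past the edgeR threshold, open points are not, and black bars are list medians. The 9 collagens, chosen on this contrast, are all above 0, at 2.01 to 7.34. So are 69 of the 92 col class collagens, whereas the 11 dumpy collagens with lon-3 lie on both sides of it.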

How the data were processed

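The authors deposited unnormalized read counts, 1 table of whole numbers for each of the 6 libraries. RNA (8 to 10 ng) was amplified with the Ovation RNA-Seq kit, per the labels' protocols, so counts are not independent molecules. The submitters' processing notes name build WBcel235 and the tools STAR, HTSeq, FastQC, Trim Galore, DESeq2 1.30.1 and R 4.0.2. Annotation release and strand setting: not given in the sources used here. Summary rows (reads on no gene 0.807% to 3.88%, on several genes 0.303% to 0.677%) were left out.

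Genes were kept by filterByExpr of edgeR 4.0.16 (11955 of 46748, all 9 collagens among them) and scaled by TMM in R 4.3.3. Groups were compared by the robust quasi-likelihood F test, group as only term, fitted over all genes and tested on simulated data; SEs are the absolute log2 difference over the square root of F. Transcript lengths came from Ensembl's WBcel235 annotation, to which 97.1% of rows matched. No sequence is printed, since no sequence table was used here. The 9 genes and the lists were chosen with earlier results of these data known. Named genes are the 9, genes overlapping them and genes of the lists past the threshold. Up to 3 others per list and direction by p, and the 3 nearest profiles per collagen, are named too. Outside this rule, and after their values were seen, bli-3, bli-4, bli-5, mlt-11 and vab-10 were named. So were the seam genes rnt-1, wrt-2, ceh-16, bro-1, lin-22 and nhr-73. The labels do not say whether a replicate number pairs the libraries. Deviations of same-numbered libraries correlated at 0.0423, -0.0569 and -0.0340 across genes, and those of differently numbered ones at -0.0312 to 0.0635. Low values between different cell populations cannot tell whether a preparation was shared.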

Additional observations from a re-analysis of the deposited data

How the results depend on the processing

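All 9 collagens kept a log2 difference above 0 under every scaling, filter, test and left-out library tried, except bli-2, at -0.13 without anchor cell replicate 1. Their median of 2.94 ranged from 1.80 with library totals alone to 3.69 without whole-body replicate 2. Library totals moved the median of all genes from -0.12 to -0.94, and the 9 then ran from 1.28 (sqt-2) to 6.42 (rol-1). With at least 10 CPM in at least 3 libraries, bli-2 and bli-6 were not tested. Of the 9, 2 were past the threshold, but 6 with DESeq2 or the replicate block, 7 without a filter and 7 without anchor cell replicate 1. Among all tested genes, 240 of 11955 were called higher, and 390 of 11955 with the block. With DESeq2 it was 798 of 14849 with an adjusted p. Without a filter it was 603 of 26845, and without anchor cell replicate 1 it was 966 of 13270. Nothing is read from the counts of the 9, since they were chosen on this contrast. Over all genes 240 were called higher and 125 lower. The counts were 98 and 372 with library totals alone, 798 and 1580 with DESeq2 1.42.0, 412 and 1132 with limma 3.58.1 voom, and 603 and 372 without a filter; with at least 10 CPM 197 were lower. With single libraries left out, 31 to 966 were higher and 7 to 1156 lower. The replicate block gave 390 and 338, though the labels of same-numbered samples share only a number. Rises were 65.8% of calls, 20.9% with library totals alone, 33.6% with DESeq2, 26.7% with voom, and 53.6% with the block. The cause of these changes was not tested. Merged exon lengths left the order of levels the same in both groups.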
